A study of Mus musculus with 18 samples.

Results

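Cholesterol synthesis, uptake and sterol sensing were followed in white fat through 30 genes, matched by symbol in the 24091 genes of the epididymal table and by gene name in the 51826 identifiers of the inguinal table. All 30 were found in both depots, and all 30 passed the filter on low values in both. They comprise 20 enzymes of the synthesis pathway, 4 regulators of the SREBP system (Srebf2, Scap, Insig1 and Insig2), 2 genes of sterol transport and uptake (Stard4 and Mylip), and 4 genes of LXR sensing and efflux (Nr1h2, Nr1h3, Abca1 and Abcg1).

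RNA sequencing was done on fat of C57BL/6 mice after 24 weeks on 1 of 2 light schedules. Shiftwork mice had the regular light-dark cycle on 4 days of each week and the reversed cycle on the other 3, and control mice had 12 h of light and 12 h of dark throughout. Epididymal white adipose tissue (eWAT, visceral) was sampled at ZT12 and at ZT3, and inguinal white adipose tissue (iWAT, subcutaneous) at ZT3, where ZT counts hours from lights-on of the regular cycle. This gives 6 groups of 3 libraries: eWAT ZT12 shiftwork, eWAT ZT12 control, eWAT ZT3 shiftwork, eWAT ZT3 control, iWAT ZT3 shiftwork and iWAT ZT3 control. The labels name no genotype, age or day of the week at sampling, and do not say whether the libraries of a group come from separate animals, so the p-values measure spread between libraries, which may be technical.

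Cells make cholesterol from acetyl-CoA by way of mevalonate, the isoprenoids and squalene, and the enzymes of this route are largely switched on together by SREBP2, the product of Srebf2. When membranes hold enough sterol, Insig proteins keep the SREBP escort Scap in the endoplasmic reticulum and the factor stays inactive; when sterol is short, Scap carries it to the Golgi for cleavage. Oxysterols from surplus cholesterol activate the LXR receptors, which switch on the export pumps Abca1 and Abcg1 and the ubiquitin ligase Mylip, which limits sterol uptake. Adipose tissue is a large store of free cholesterol in the body.

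Promoter sequence was read for the members as 250 bases before the RefSeq start to 50 after it (RefSeq, build GRCm38.p6), and 25 of the 30 members had such a window. Stard4, Abcg1, Sqle, Fdft1 and Fdps had none. The 5 stretches below hold the bases before the start, 5' to 3' on the gene's own strand, for the first committed synthase (Hmgcs1), the enzyme called between times in control fat (Tm7sf2), a demethylase step with several matches (Msmo1), the sterol sensor Insig1 and the efflux pump Abca1. Capitals mark matches on either strand to the sterol element form TCACNCCAC, to the CCAAT box (ATTGG on the other strand) and to the E-box CACGTG.
Hmgcs1, chr13:119690101-119690350, plus strand: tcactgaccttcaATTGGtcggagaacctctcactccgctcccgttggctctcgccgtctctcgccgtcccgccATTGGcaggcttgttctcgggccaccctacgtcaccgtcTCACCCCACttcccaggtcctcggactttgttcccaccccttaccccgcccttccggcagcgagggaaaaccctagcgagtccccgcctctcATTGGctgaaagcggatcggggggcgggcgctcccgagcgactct
Tm7sf2, chr19:6067851-6068100, minus strand: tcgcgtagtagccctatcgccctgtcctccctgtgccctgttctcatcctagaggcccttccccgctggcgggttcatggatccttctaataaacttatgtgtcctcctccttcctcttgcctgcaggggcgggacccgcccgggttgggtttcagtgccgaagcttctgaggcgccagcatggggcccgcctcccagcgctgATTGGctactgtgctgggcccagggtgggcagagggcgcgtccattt
Msmo1, chr8:64733579-64733828, minus strand: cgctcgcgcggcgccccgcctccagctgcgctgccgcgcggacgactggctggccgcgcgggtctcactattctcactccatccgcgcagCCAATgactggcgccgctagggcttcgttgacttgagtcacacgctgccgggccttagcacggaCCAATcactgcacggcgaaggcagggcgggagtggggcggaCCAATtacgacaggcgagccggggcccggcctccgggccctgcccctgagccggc
Insig1, chr5:28071162-28071411, plus strand: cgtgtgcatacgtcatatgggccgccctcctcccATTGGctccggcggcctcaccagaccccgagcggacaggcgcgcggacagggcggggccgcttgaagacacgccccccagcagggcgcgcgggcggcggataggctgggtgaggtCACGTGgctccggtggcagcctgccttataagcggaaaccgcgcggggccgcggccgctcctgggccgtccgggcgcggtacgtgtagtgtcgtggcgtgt
Abca1, chr4:53159896-53160145, minus strand: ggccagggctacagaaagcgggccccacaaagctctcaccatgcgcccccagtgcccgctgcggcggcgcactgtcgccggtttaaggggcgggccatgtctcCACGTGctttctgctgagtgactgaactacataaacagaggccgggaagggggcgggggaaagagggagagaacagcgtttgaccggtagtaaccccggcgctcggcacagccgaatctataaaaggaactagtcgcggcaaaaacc

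The CCAAT box, bound by NF-Y, a known partner of SREBP, was found in the windows of 20 of 25 members and of 16 of the 17 enzymes with a window, against 41.1% of 27025 genes. The sterol element core TCACCCCAC was found in Hmgcs1 alone, with its first base at -137 from the start, against 0.614% of genes; the looser TCACNCCAC, which includes the same letters, also matched Hmgcs1 alone, against 1.44%. The E-box CACGTG, the letters bound by clock factors and able to bind SREBP, was found in 6 of 25 members (Hsd17b7, Sc5d, Dhcr7, Scap, Insig1 and Abca1), against 8.09% of genes. The LXR element DR4 was searched only as a perfect direct repeat, on both strands, and was found in none of the 25. That form was held by 4 of 27025 genes (0.0148%), so its absence here could be foreseen. Other variants of the sterol element and looser LXR elements were not searched, and these promoters may hold them. A match is a run of letters in this window and is not evidence of binding.

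Several libraries carried transcripts of other tissues. Of the eWAT libraries, ZT3 control replicates 1 and 3 had summed levels of 10 vas deferens and epididymis genes of 11353 and 11973 CPM (TMM-scaled read counts relative to library size), against 1.89 to 11.5 CPM in the other 10; of these genes 3 were at 0 in each of the high libraries and 4 to 8 in each of the others. ZT3 shiftwork replicate 3 had 4770 CPM of 10 spermatid genes, with none of the 10 at 0, against 5.66 to 78.8 CPM elsewhere, and the lowest sum of 6 adipocyte markers, 7154 CPM against 11829 to 21995. In iWAT, control replicates 1 and 2 had 25383 and 41165 normalized counts of 6 B cell genes against 128 to 1281 in the other 4. The iWAT shiftwork replicate 1 had 1690540 normalized counts of 7 skeletal muscle genes, against 1644 to 23456 in the other iWAT libraries. It also had 49780 normalized counts of 5 smooth muscle genes, against 4394 to 8425. In such bulk samples fewer cells of a type and less RNA per cell cannot be told apart. Results are given with and without the 3 ZT3 eWAT libraries, which leaves ZT3 control with 1 library (replicate 2), assumed to vary like the other groups. eWAT libraries held 20352008 to 72276733 reads, with ZT3 control replicate 1 the deepest, and iWAT libraries 28544338 to 55639501.

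Levels per transcript length differed widely among the members. In FPKM (read counts scaled by gene length and library size), Insig1 was the highest member in all 4 eWAT groups. It averaged 196 ± 17.2 FPKM in ZT12 shiftwork, 151 ± 47.4 in ZT12 control, 87.5 ± 28.2 in ZT3 shiftwork and 170.1 ± 108 in ZT3 control (SD, n = 3 each). Sc5d, the sterol desaturase, and Hmgcs1, the synthase that commits acetyl units to the pathway, came next in each eWAT group; Sc5d averaged 88.5 ± 16.5 FPKM and Hmgcs1 63.6 ± 18 FPKM in ZT12 shiftwork. Of the 29 pairs of neighbours in the order, 6 in ZT12 shiftwork, 3 in ZT12 control, 2 in ZT3 shiftwork and 1 in ZT3 control lay farther apart than their summed SDs. Insig1 and Sc5d, the top pair, were apart by this measure in ZT12 shiftwork and not in ZT12 control, ZT3 shiftwork or ZT3 control. Abca1 averaged 36.5 ± 7.10 FPKM in ZT12 shiftwork and 24.5 ± 5.41 FPKM in ZT3 control, above Abcg1 in every eWAT group. The lowest was Idi1, the isopentenyl isomerase, at 0.294 to 0.626 FPKM by group, with 13 reads in its lowest library. In iWAT, in RPKM, Hmgcs1 averaged 101 ± 57.9 and Insig1 86.5 ± 33.8 in shiftwork, against 84.5 ± 19.5 and 98.1 ± 3.38 in control. Fdps, which makes farnesyl units, averaged 0.763 ± 0.194 RPKM in iWAT ZT3 shiftwork and 11.4 ± 2.75 FPKM in eWAT ZT3 shiftwork; the tables use different gene models, and in GENCODE vM21 Fdps shares 1124 exon bases with another gene on its strand, so this gap was not tested as a difference between depots.

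**Figure D1:**
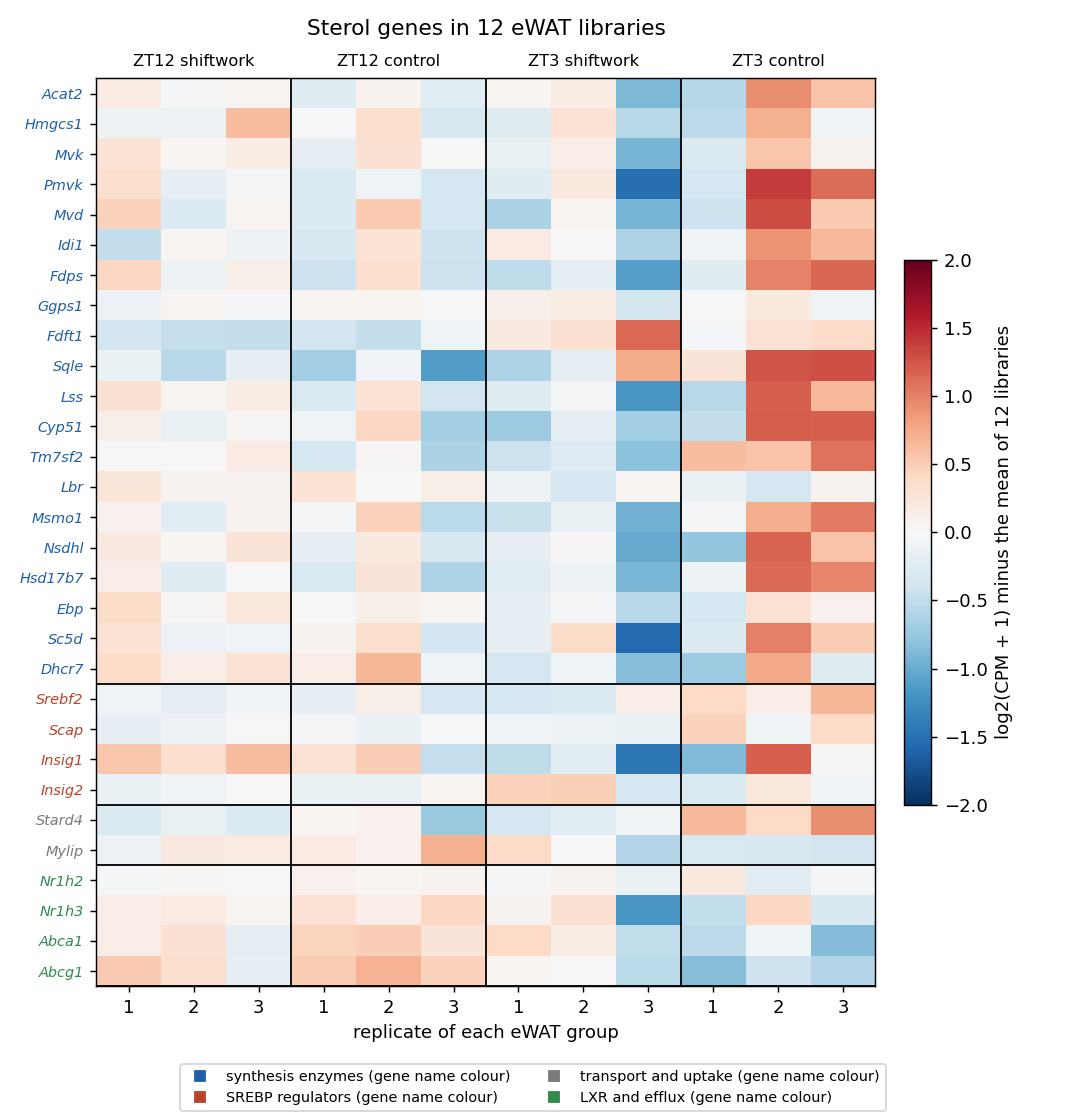
Each cell is the log2(CPM + 1) of a gene (rows, coloured by role) in an eWAT library (columns, replicates 1 to 3 of each group) minus that gene's mean over the 12 libraries. ZT3 control replicates 2 and 3 are red for most synthesis enzymes, ZT3 control replicate 1 is not, and ZT3 shiftwork replicate 3 is blue for most, with Fdft1 and Sqle red.

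Read library by library, most enzymes were high or low together, while the LXR genes put the groups in another order. For each library the difference of log2(CPM + 1) from the gene's mean over 12 eWAT libraries was averaged over the 20 enzymes. These averages were 0.13, -0.10 and 0.07 in ZT12 shiftwork, -0.18, 0.20 and -0.34 in ZT12 control, -0.24, 0.00 and -0.68 in ZT3 shiftwork, and -0.25, 0.81 and 0.57 in ZT3 control. ZT3 control held both the highest libraries and 1 of the low ones, so its spread (SD 0.56) was the widest of the 4 groups. In ZT3 control replicates 2 and 3, 19 and 18 of the 20 enzymes lay above their own median over the libraries, and in replicate 1, 4 did. The 4 SREBP regulators averaged 0.04, -0.01 and 0.14 in ZT12 shiftwork, -0.01, 0.08 and -0.19 in ZT12 control, -0.12, -0.03 and -0.44 in ZT3 shiftwork, and -0.08, 0.36 and 0.24 in ZT3 control, the same order of groups at a smaller scale. The 4 LXR genes averaged 0.19, 0.20 and -0.08 in ZT12 shiftwork, 0.33, 0.34 and 0.30 in ZT12 control, 0.12, 0.14 and -0.59 in ZT3 shiftwork, and -0.42, -0.08 and -0.45 in ZT3 control. ZT12 control was high for the LXR genes in all 3 libraries and ZT3 control low, whereas ZT3 control was the highest group of the enzymes. Within groups the order was partly shared. In ZT3 shiftwork and in ZT12 control, the enzymes and the LXR genes were both highest in replicate 2 and lowest in replicate 3. ZT3 shiftwork replicate 3 was the lowest of the 12 libraries for both. No test was made of these averages, since the members were chosen with results known.

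**Figure D2:**
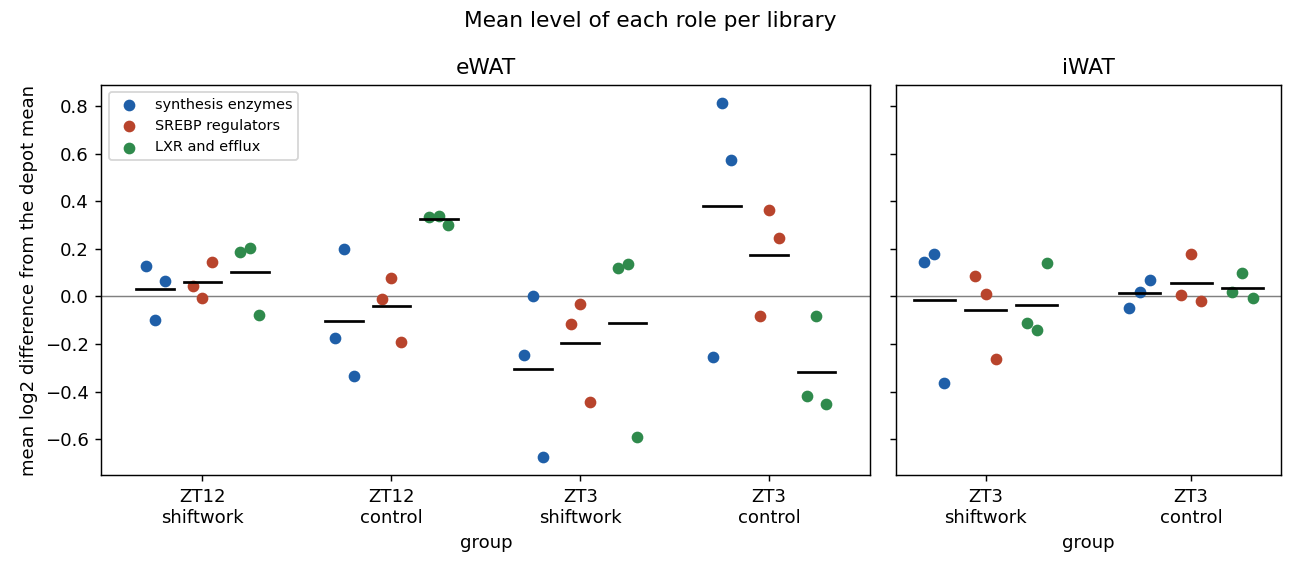
Points are libraries, and each gives the mean over the genes of a role of the log2 difference from the gene's depot mean; black lines are group means (n = 3). In eWAT the synthesis enzymes average 0.38 in ZT3 control and -0.31 in ZT3 shiftwork, whereas the LXR and efflux genes average 0.32 in ZT12 control and -0.32 in ZT3 control.

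Whether the rotating schedule altered the pathway in eWAT was asked first at ZT3, early in the light phase. Here 18 of the 20 synthesis enzymes had lower means in shiftwork than in control, with a median log2 fold change of -0.87 against 0.06 over all 15141 genes tested, of which 43.1% were lower. None of the 30 members was called at an adjusted p under 0.05, and neither was any gene (0% called, edgeR quasi-likelihood test with Benjamini-Hochberg adjustment); 12 members, 11 lower and 1 higher, were under 0.05 unadjusted, against 18.8% of all genes. DESeq2 called 662 of the 20982 genes it fitted in this comparison, among them 6 members, all lower (Cyp51, Fdps, Hsd17b7, Msmo1, Tm7sf2 and Stard4). Without these 3 ZT3 libraries (control replicates 1 and 3, shiftwork replicate 3), 19 of 20 enzymes were lower and the median was -1.03. This fit kept only replicate 2 in ZT3 control, the eWAT library with the highest enzyme average (0.81). It therefore cannot separate the schedule from that library. The enzymes' difference was smaller without ZT3 control replicate 2: 16 were then lower, the median was -0.51, and Tm7sf2 and Scap were called lower among 403 genes (2.57%).

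Among the late enzymes, Tm7sf2, a sterol reductase of the endoplasmic reticulum (chr19:6062821-6067867, minus strand, GRCm38), had 6.93, 7.87 and 4.98 CPM in ZT3 shiftwork, against 15.2, 14.7 and 21.5 CPM in ZT3 control. The groups did not overlap, and every control library lay well above the highest shiftwork one. The log2 fold change was -1.37 (SE 0.25, edgeR adjusted p = 0.170). Tm7sf2 shares 532 exon bases with Vps51 on its strand in GENCODE vM21, so reads there are uncertain. Cyp51, the lanosterol demethylase, had 57.0, 83.5 and 58.4 CPM in ZT3 shiftwork, against 67.6, 221 and 218 CPM in ZT3 control, overlapping only through control replicate 1 (log2 fold change -1.34, SE 0.42, edgeR adjusted p = 0.210). Msmo1, the methyl sterol oxidase, had 42.1, 52.2 and 29.3 CPM in ZT3 shiftwork, against 56.2, 96.7 and 119 CPM in ZT3 control (log2 fold change -1.13, SE 0.32, edgeR adjusted p = 0.207). Its groups did not overlap, but control replicate 1 sat just above the highest shiftwork library. Hsd17b7, a keto-sterol reductase, had 27.1, 29.6 and 16.5 CPM in ZT3 shiftwork, against 29.7, 70.9 and 63.4 CPM in ZT3 control, barely separated (log2 fold change -1.15, SE 0.35, edgeR adjusted p = 0.207).

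Of the isoprenoid enzymes, Fdps had 23.1, 29.1 and 15 CPM in ZT3 shiftwork, against 28.2, 67.8 and 75.6 CPM in ZT3 control (log2 fold change -1.34, SE 0.38, edgeR adjusted p = 0.207). Control replicates 2 and 3 lay above every shiftwork library, and replicate 1 lay among them. The 2 enzymes that were not lower were Fdft1, squalene synthase, and Lbr, a nuclear membrane sterol reductase better known as the lamin B receptor. Fdft1 had 56.1, 61.0 and 109.5 CPM in ZT3 shiftwork, against 48.8, 60.9 and 64.4 CPM in ZT3 control. The high value belongs to replicate 3, the library with spermatid transcripts, and without the 3 libraries named above the log2 fold change of Fdft1 was -0.07 instead of 0.40. Sqle, squalene epoxidase, had 25.9, 35.1 and 68.5 CPM in ZT3 shiftwork, against 48.5, 97.9 and 100.1 CPM in ZT3 control, and its highest shiftwork value came from the same library. The part of germ cell RNA in these 2 values was not tested.

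The SREBP regulators split. Srebf2 had 55.5, 58.6 and 78.0 CPM in ZT3 shiftwork, against 93.7, 78.1 and 113 CPM in ZT3 control, barely separated (log2 fold change -0.55, SE 0.18, edgeR adjusted p = 0.215). Scap had 53.9, 52.9 and 51.8 CPM in ZT3 shiftwork, against 78.5, 53.4 and 74.4 CPM in ZT3 control, where the 2 high libraries were those with vas deferens transcripts (log2 fold change -0.37, SE 0.13, edgeR adjusted p = 0.219). The same libraries held the highest 2 values of Srebf2, and of Tm7sf2 and Stard4. Without control replicates 1 and 3 and shiftwork replicate 3 the log2 fold change was -0.01 for Scap, -0.47 for Srebf2, -1.0 for Tm7sf2 and -0.73 for Stard4, none of them called. B cell transcripts moved with these genes too: the sum of 5 markers was 13.3, 12.6 and 37.3 CPM in ZT3 shiftwork, against 61.8, 74.4 and 244 CPM in ZT3 control, with none of the 5 at 0, and their part was not tested. Insig1, itself an SREBP target, had 345, 418 and 179.7 CPM in ZT3 shiftwork, against 265, 1129 and 496 CPM in ZT3 control, with a wide range within control alone. Insig2, which is not driven by SREBP in the same way, had 111, 112 and 63.5 CPM in ZT3 shiftwork, against 65.5, 92.6 and 75.8 CPM in ZT3 control. Stard4, a cytosolic sterol carrier and SREBP target, had 12.0, 12.9 and 14.6 CPM in ZT3 shiftwork, against 24.4, 20.4 and 29.9 CPM in ZT3 control. These groups did not overlap (log2 fold change -0.91, SE 0.23, edgeR adjusted p = 0.195). In all, 5 members were lower in every shiftwork library than in every control library (Hsd17b7, Msmo1, Tm7sf2, Srebf2 and Stard4), against 4.43% of all genes.

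The LXR side did not follow the enzymes at ZT3. Abca1 had 618, 522 and 332 CPM in ZT3 shiftwork, against 327, 441 and 256 CPM in ZT3 control, and Abcg1 had 79.8, 77.3 and 52.7 CPM in ZT3 shiftwork, against 42.2, 57.5 and 51.3 CPM in ZT3 control. Both groups overlapped through shiftwork replicate 3. The receptors Nr1h2 (LXR beta) and Nr1h3 (LXR alpha) had log2 fold changes of -0.01 and -0.05. Of 33 further genes of SREBP processing, sterol traffic, LXR response, isoprenoid branches and oxysterol metabolism, 15 were higher and 18 lower, with 0 called and 5 under 0.05 unadjusted. Cyp27a1, the mitochondrial sterol hydroxylase that makes an LXR-activating oxysterol, had 69.7, 75.8 and 39.6 CPM in ZT3 shiftwork, against 38.2, 32.2 and 24.5 CPM in ZT3 control (log2 fold change 0.97, SE 0.28, edgeR adjusted p = 0.207). Ch25h, another oxysterol-making hydroxylase, was near the detection limit, at 0.332 to 0.729 CPM in ZT3 shiftwork and 0.687 to 4.19 CPM in ZT3 control (log2 fold change -1.96, SE 0.61, edgeR adjusted p = 0.208). Erlin2, which takes part in Insig and SREBP turnover, differed by a log2 fold change of 0.25 (SE 0.09, edgeR adjusted p = 0.218).

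**Figure D3:**
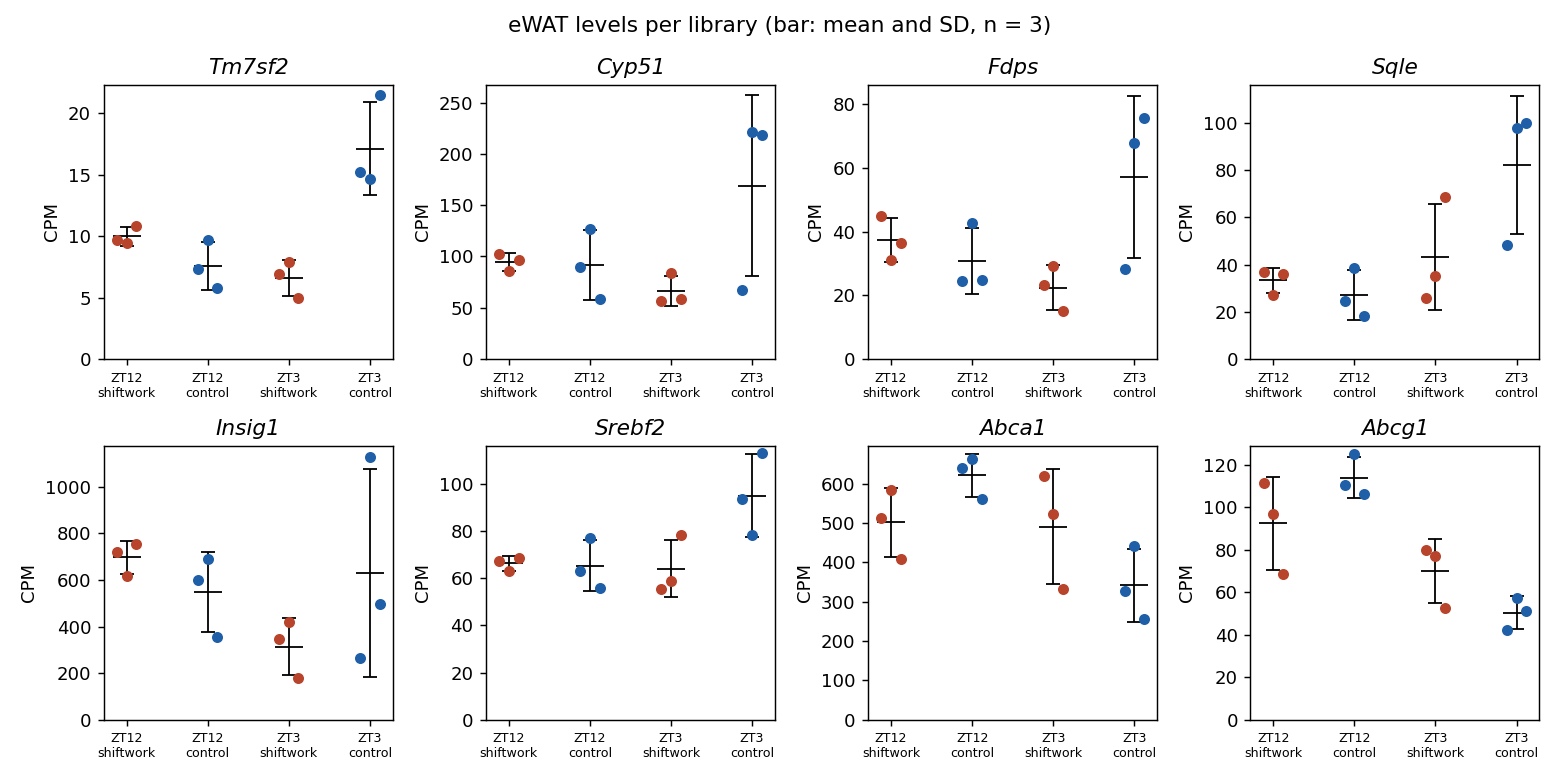
Points are TMM-scaled CPM of 8 members in each eWAT library (red shiftwork, blue control), with the mean and SD of 3 libraries in black. Tm7sf2, Cyp51, Fdps, Sqle and Srebf2 have their highest libraries in ZT3 control, whereas Abca1 and Abcg1 are lowest there.

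At ZT12, when the lights of the regular cycle go off, no member passed the test between shiftwork and control fat. Of the 20 enzymes, 13 were higher and 7 lower in shiftwork, with a median log2 fold change of 0.12 against -0.00 over all genes. No gene was called (0% called, edgeR; DESeq2 called 12), and none of the 30 members was under 0.05 unadjusted, against 2.34% of all genes. With the replicate number as a block, which is the fit in which same-numbered libraries of these 2 groups are paired, 4 of the 20 enzymes were lower and 0 members were called. Tm7sf2 had 9.68, 9.47 and 10.9 CPM in ZT12 shiftwork, against 7.31, 9.69 and 5.81 CPM in ZT12 control. Insig1 had 721, 619 and 754 CPM in ZT12 shiftwork, against 598, 689 and 358 CPM in ZT12 control. In both genes the groups overlapped and control was the more variable. The largest enzyme difference at ZT12 was 0.40 on the log2 scale. All 4 LXR genes were lower in shiftwork, by log2 fold changes of -0.07 (Nr1h2) to -0.31 (Abca1). Nr1h2 was the only member whose groups did not overlap, with 55.6, 57.4 and 56.4 CPM in ZT12 shiftwork, against 60.2, 58.3 and 59.9 CPM in ZT12 control; 6.66% of all genes were separated in that direction. The 33 further genes had 8 higher and 25 lower means, with 0 under 0.05 unadjusted.

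**Figure D4:**
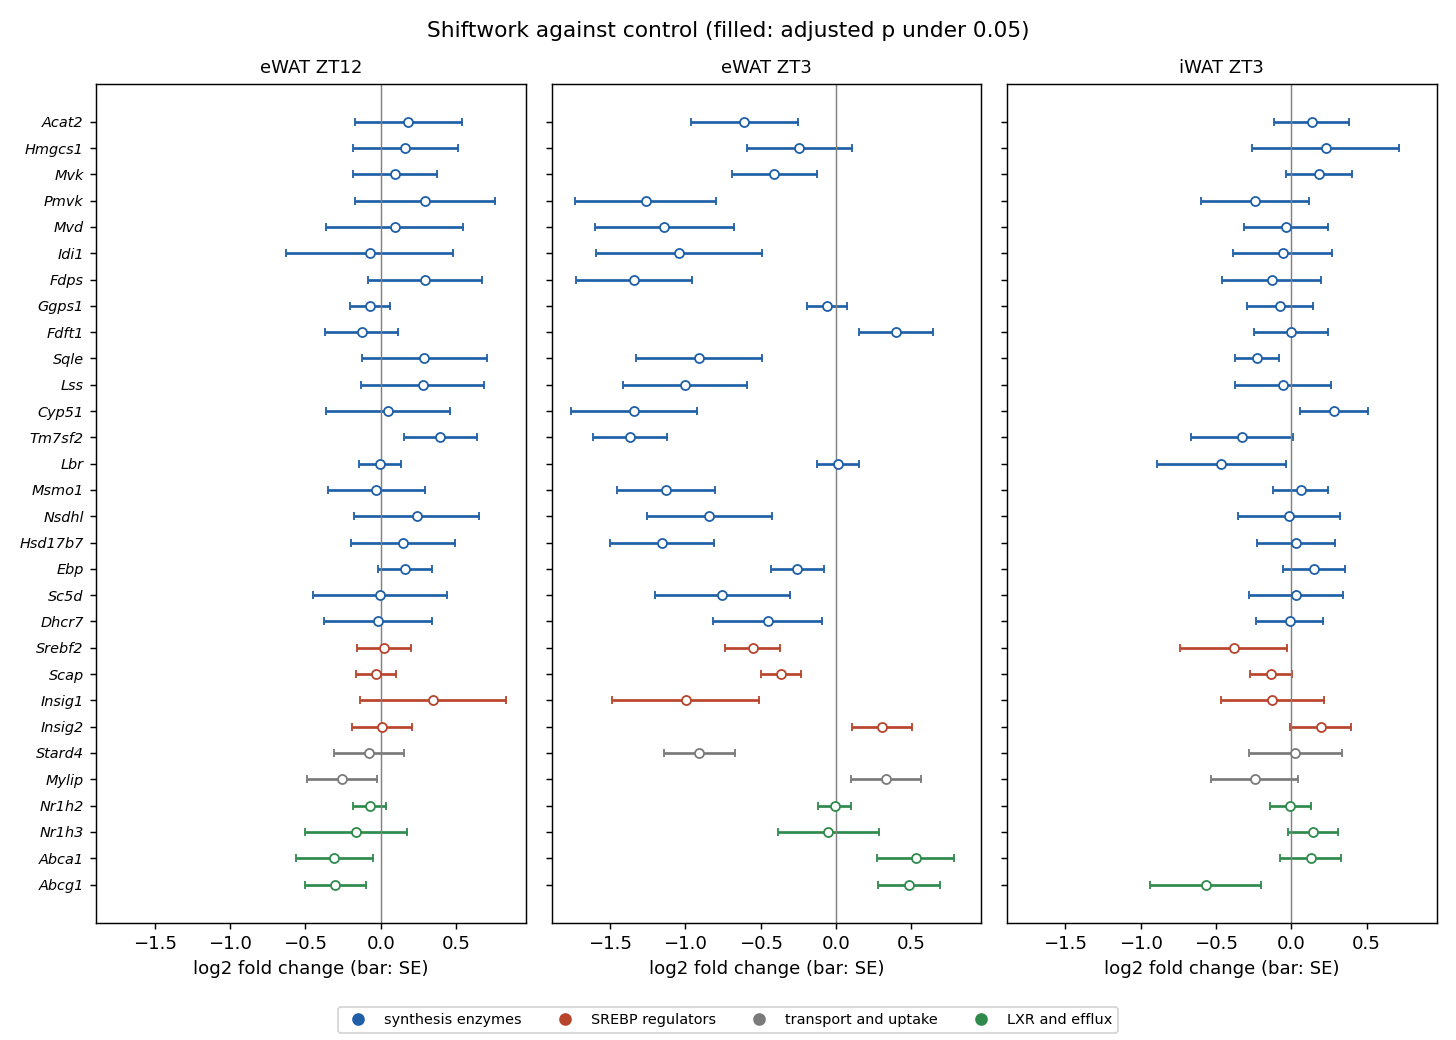
Log2 fold changes of shiftwork over control with their SE for the 30 members in eWAT at ZT12, eWAT at ZT3 and iWAT at ZT3; open points have an adjusted p of 0.05 or more. In eWAT 18 of 20 enzymes lie left of 0 at ZT3 and 7 at ZT12, and in iWAT the enzymes lie on both sides.

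Time of day was compared within each schedule in eWAT; these 2 comparisons share no libraries with each other but share them with the comparisons above. In shiftwork fat, 16 of 20 enzymes were higher at ZT12 than at ZT3, with a median log2 fold change of 0.41 against -0.03 over all genes. DESeq2 called 296 of the 20982 genes it fitted, among them Fdft1. No gene was called by edgeR (0% called), and 4 members were under 0.05 unadjusted, against 16.3% of all genes. Without the 3 libraries named above 15 of 20 enzymes were higher, the median was 0.18, and Insig2 was called among 75 genes, or 0.485% (log2 fold change -0.57, edgeR adjusted p = 0.0445), from 72.9, 76.4 and 80.2 CPM in ZT12 shiftwork and 111 and 112 CPM in the remaining ZT3 shiftwork libraries. In 9 members every ZT12 shiftwork library lay above every ZT3 shiftwork library (Cyp51, Dhcr7, Ebp, Fdps, Lbr, Lss, Nsdhl, Tm7sf2 and Insig1), against 9.37% of all genes, and in 1 member, Fdft1, the order was the opposite, against 7.23%. The 4 LXR genes all had higher means at ZT12 (median 0.14), but without ZT3 shiftwork replicate 3 only 1 of 4 did (median -0.06).

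Insig1 had 721, 619 and 754 CPM in ZT12 shiftwork, against 345, 418 and 179.7 CPM in ZT3 shiftwork (log2 fold change 1.15, SE 0.49, edgeR adjusted p = 0.293). Ebp, the sterol isomerase, had 56.8, 44.5 and 50.6 CPM in ZT12 shiftwork, against 39.1, 42.5 and 29.5 CPM in ZT3 shiftwork (log2 fold change 0.44, SE 0.18, edgeR adjusted p = 0.285). For Tm7sf2 the log2 fold change was 0.59 (SE 0.24, edgeR adjusted p = 0.285). In all 3 genes the lowest library was ZT3 shiftwork replicate 3, the one with spermatid transcripts and the lowest adipocyte markers, and without it the log2 fold changes were 0.86, 0.30 and 0.43. Fdft1 had 38, 35.8 and 35.2 CPM in ZT12 shiftwork, against 56.1, 61.0 and 109.5 CPM in ZT3 shiftwork (log2 fold change -1.07, SE 0.25, edgeR adjusted p = 0.280). Without that library the log2 fold change of Fdft1 was -0.70. Fdft1 shares 774 exon bases with Ctsb on the opposite strand in GENCODE vM21, and the strand used in counting is not given in the sources used here. Of the 33 further genes 20 were higher and 13 lower. Pltp, the phospholipid transfer protein and an LXR target, had 380, 321 and 360 CPM in ZT12 shiftwork, against 211, 130 and 243 CPM in ZT3 shiftwork (log2 fold change 0.84, SE 0.26, edgeR adjusted p = 0.280). Rnf145, a ubiquitin ligase of sterol sensing, had a log2 fold change of 0.34 (SE 0.11, edgeR adjusted p = 0.280). Gramd1c, a sterol transfer protein, had 2.23, 1.79 and 1.84 CPM in ZT12 shiftwork, against 2.23, 1.17 and 45.4 CPM in ZT3 shiftwork, so that its log2 fold change of -3.09 (SE 1.16, edgeR adjusted p = 0.280) rested on 1 library and turned to 0.20 without it.

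In control fat the direction of the enzymes was the other way. Of the 20, 17 were lower at ZT12 than at ZT3, with a median log2 fold change of -0.62 against -0.01 over all genes, and all 4 LXR genes were higher, with a median of 0.61. This was the comparison with calls: edgeR called 443 genes higher, or 2.93% of those tested, and 116 lower, or 0.766%. Among the 30 members 1 was called higher (Abcg1) and 1 lower (Tm7sf2), and 12 were under 0.05 unadjusted, against 22.4% of all genes. DESeq2 called 2213 of the 20982 genes it fitted, among them 7 members (Abca1 and Abcg1 higher, and Hsd17b7, Sqle, Srebf2, Stard4 and Tm7sf2 lower).

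Abcg1, the pump that loads cholesterol onto mature HDL (chr17:31057694-31117981, plus strand, GRCm38), had 111, 125 and 106 CPM in ZT12 control, against 42.2, 57.5 and 51.3 CPM in ZT3 control. The groups were far apart, and Abcg1 rose by a log2 fold change of 1.18 (SE 0.21, edgeR adjusted p = 0.0218). Tm7sf2 had 7.31, 9.69 and 5.81 CPM in ZT12 control, against 15.2, 14.7 and 21.5 CPM in ZT3 control, and fell by 1.17 on the log2 scale (SE 0.24, edgeR adjusted p = 0.0345). Over 17 alternatives the adjusted p of Abcg1 ran from 1.59e-05 to 0.122 and was under 0.05 in 11, and that of Tm7sf2 ran from 9.28e-05 to 0.152 and was under 0.05 in 5. Leaving out any single library of ZT12 control, or ZT3 control replicate 1 or 3, ended both calls. Without ZT3 shiftwork replicate 3, which enters through the shared spread, 8 members were called, in a fit that called 17.8% of all genes (2744). Without ZT3 control replicate 2, 14 of 20 enzymes were lower with a median of -0.27, and Abca1, Abcg1, Scap, Stard4 and Tm7sf2 were called among 1208 genes (7.72%). Leaving out ZT3 control replicates 1 and 3 and ZT3 shiftwork replicate 3 together also ended both (log2 fold changes 0.95 and -0.99, edgeR adjusted p = 0.0680 and 0.0619), while Acat2, Hsd17b7, Lss, Nsdhl, Pmvk and Sqle were called lower in that fit, all against the single ZT3 control replicate 2, with 619 genes (4%) called in all, 351 of them lower. With the replicate block, which no correlation of same-numbered libraries backed in this comparison, Abcg1 and Abca1 were called and Tm7sf2 was not (edgeR adjusted p = 0.0699).

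Abca1, which exports cholesterol to lipid-poor apolipoprotein, had 640, 663 and 560 CPM in ZT12 control, against 327, 441 and 256 CPM in ZT3 control (log2 fold change 0.86, SE 0.26, edgeR adjusted p = 0.0855). Mylip had 88.5, 84.0 and 129 CPM in ZT12 control, against 63.5, 63.2 and 60.9 CPM in ZT3 control (log2 fold change 0.68, SE 0.23, edgeR adjusted p = 0.119). With Abcg1, these were the 3 members whose ZT12 control libraries all lay above ZT3 control, against 19.4% of all genes. The other 2 LXR genes, the receptors themselves, had log2 fold changes of 0.36 (Nr1h3) and 0.08 (Nr1h2). Outside the members, Pltp and Lipa were called, both higher. Neither call was firm: of 17 alternatives, Pltp was called in 8 and Lipa in 7. Without ZT3 control replicates 1 and 3 and ZT3 shiftwork replicate 3 their log2 fold changes were 0.97 and 0.92. Pltp had 388, 454 and 331 CPM in ZT12 control, against 147, 194 and 115 CPM in ZT3 control (log2 fold change 1.36, SE 0.26, edgeR adjusted p = 0.0265). Lipa, the lysosomal lipase that frees cholesterol from its esters, had 199, 319 and 142 CPM in ZT12 control, against 78.2, 113 and 67.4 CPM in ZT3 control (log2 fold change 1.35, SE 0.29, edgeR adjusted p = 0.0359). No other of the 33 further genes was called, of which 20 were higher and 13 lower. Macrophage transcripts moved the same way: the sum of 8 markers was 886 to 1676 CPM in ZT12 control, against 538 to 680 CPM in ZT3 control. None of the 8 was at 0 in any of these libraries. In shiftwork fat the sum was higher at ZT12 too, at 1030 to 1976 CPM against 539 to 923 CPM at ZT3. The part of macrophage RNA in the LXR, Pltp and Lipa values was not tested.

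On the synthesis side of this comparison, Sqle had 24.8, 38.7 and 18.2 CPM in ZT12 control, against 48.5, 97.9 and 100.1 CPM in ZT3 control (log2 fold change -1.59, SE 0.42, edgeR adjusted p = 0.0651). Stard4 had 15.7, 16.3 and 8.70 CPM in ZT12 control, against 24.4, 20.4 and 29.9 CPM in ZT3 control (log2 fold change -0.88, SE 0.23, edgeR adjusted p = 0.0651). Both were lower in every ZT12 library. Srebf2 had 63.0, 76.9 and 55.8 CPM in ZT12 control, against 93.7, 78.1 and 113 CPM in ZT3 control (log2 fold change -0.54, SE 0.18, edgeR adjusted p = 0.113). Together with Fdft1 and Tm7sf2, 5 members were separated downward, against 13.6% of all genes. Hsd17b7 differed by a log2 fold change of -0.96 (SE 0.35, edgeR adjusted p = 0.139), Scap by -0.33 (SE 0.13, edgeR adjusted p = 0.175) and Pmvk, phosphomevalonate kinase, by -1.15 (SE 0.47, edgeR adjusted p = 0.181). The 3 enzymes that were not lower were Lbr, Dhcr7 and Ebp; Dhcr7, the last reductase of one branch to cholesterol, had 49, 71.4 and 41.7 CPM in ZT12 control, against 26.4, 75.9 and 37.7 CPM in ZT3 control.

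**Figure D5:**
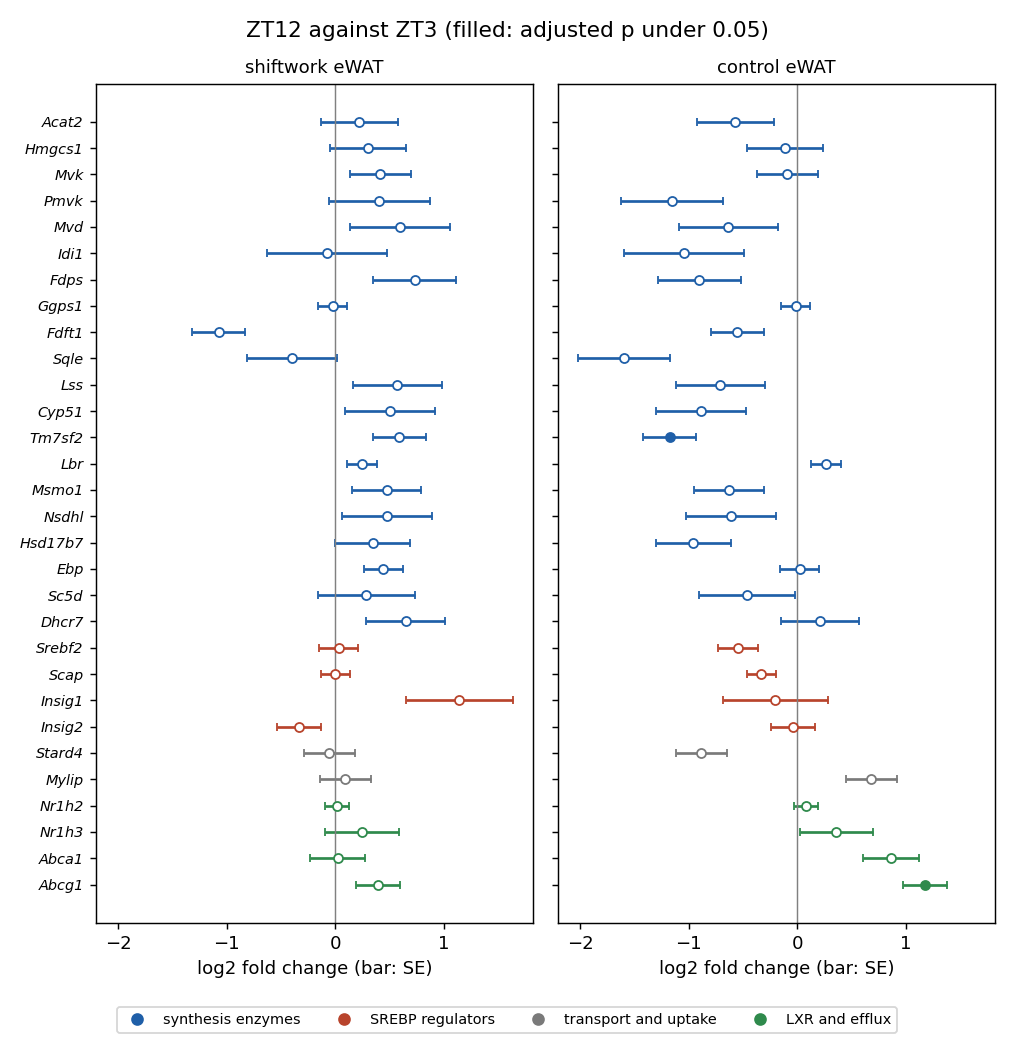
Log2 fold changes of ZT12 over ZT3 with their SE for the 30 members, in shiftwork eWAT and in control eWAT; filled points have an adjusted p under 0.05. In shiftwork 16 of 20 enzymes lie right of 0, in control 17 of 20 lie left of it, and the filled points are Tm7sf2 and Abcg1 in control.

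The difference between these time effects was tested as an interaction of schedule and time, in which a positive value means a larger ZT12 over ZT3 ratio in shiftwork than in control. It was positive for 17 of 20 enzymes, with a median of 1.02 on the log2 scale against -0.07 over all genes, and negative for all 4 LXR genes, with a median of -0.45. DESeq2 called 192 of the 20982 genes it fitted, among them Tm7sf2. No gene was called by edgeR (0% called), and 10 members were under 0.05 unadjusted, 8 positive and 2 negative, against 10.1% of all genes. Tm7sf2 had the smallest p, with an interaction of 1.77 (SE 0.34, edgeR adjusted p = 0.372), followed by Fdps at 1.63 (SE 0.54, edgeR adjusted p = 0.458). Abcg1 was at -0.78 (SE 0.29, edgeR adjusted p = 0.480). Hsd17b7 was at 1.30 (SE 0.49, edgeR adjusted p = 0.482), Stard4 at 0.83 (SE 0.33, edgeR adjusted p = 0.484), Msmo1 at 1.10 (SE 0.45), Cyp51 at 1.39 (SE 0.58) and Pmvk at 1.56 (SE 0.66), the last 3 with edgeR adjusted p = 0.484. Because the ZT3 control libraries enter every one of these values, replicate 2 was left out in turn: the enzyme median then was 0.64, and Tm7sf2 was called among 186 genes (1.19%), 172 of them positive. Of the further genes, Cyp27a1 was at -1.06 (SE 0.39, edgeR adjusted p = 0.478) and Erlin2 at -0.28 (SE 0.12, edgeR adjusted p = 0.489).

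In iWAT at ZT3 no member passed the test between schedules. Of the 20 enzymes, 12 were lower and 8 higher in shiftwork, with a median log2 fold change of -0.01 against 0.02 over all 16387 genes tested. No gene was called (0% called, limma; edgeR on recovered reads called 0, with 1599 under 0.05 unadjusted), and none of the 30 members was under 0.05 unadjusted, against 6.68% of all genes. In the authors' deposited table the smallest adjusted p among the members was 0.959, for Lbr. On the deposited RPKM scale, where the median of all genes was -0.12, 16 of 20 enzymes were lower. Tm7sf2 had 268, 243 and 166 normalized counts in iWAT shiftwork, against 189, 312 and 364 in iWAT control, with no separation. Sqle had 809, 753 and 725 normalized counts in iWAT shiftwork, against 916, 951 and 814 in iWAT control, and was the only member whose groups did not overlap (5.59% of all genes were separated in that direction). Insig1 had 11332, 11494 and 5120 normalized counts in iWAT shiftwork, against 9034, 8913 and 10752 in iWAT control. Shiftwork replicate 3 was low for most of the pathway, with 2 of 20 enzymes above their median, and without it 4 of 20 enzymes were lower in shiftwork.

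Several members in iWAT, chosen here after their values were seen, had their highest values in control replicates 1 and 2, the libraries with B cell transcripts. Lbr had 1172, 1296 and 1201 normalized counts in iWAT shiftwork, against 2061, 2766 and 839 in iWAT control. Srebf2 had 3167, 2785 and 3578 in iWAT shiftwork, against 4474, 6401 and 2435 in iWAT control. Mylip had 3155, 3123 and 2257 in iWAT shiftwork, against 3710, 4409 and 2254 in iWAT control. In all 3 genes the remaining control library was the lowest of the 6, and the part of B cell RNA was not tested. Abcg1 had 2803, 2184 and 4514 in iWAT shiftwork, against 4343, 6610 and 3129 in iWAT control, with shiftwork replicate 3 among the high libraries. Of the 33 further genes 22 were higher and 11 lower, with 0 called; Nus1, a subunit of the dolichol-making prenyltransferase, had 3316, 4244 and 3205 normalized counts in iWAT shiftwork, against 2461, 2056 and 2411 in iWAT control (log2 fold change 0.63, SE 0.17, limma adjusted p = 0.688). Syvn1, a ubiquitin ligase of the endoplasmic reticulum, and Npc2, the lysosomal sterol carrier, had log2 fold changes of -0.41 and 0.57 (SE 0.16 and 0.22, limma adjusted p = 0.688 for both).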

How the data were processed

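RNA of 18 libraries, 12 from eWAT and 6 from iWAT, was prepared with a Kapa mRNA HyperPrep kit and sequenced as single reads of 51 cycles, per the labels' protocols. Builds GRCm38 and mm10 and the tools HTSeq, STAR, edgeR, limma and DESeq2 are named, per the submitters' processing notes; versions, roles and the strand used in counting are not given in the sources used here. For eWAT the authors deposited raw read counts per gene symbol and log2 FPKM values. For iWAT the authors deposited a table headed as read counts whose values are a signal normalized by a size factor per library, RPKM values, and a comparison with log2 fold changes and p-values. The normalization of the iWAT table follows from its values: dividing by 1 step per library gave whole reads for 100% of 144100 values (largest deviation 2.79e-09).

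eWAT counts were tested with edgeR 4.0.16 in R 4.3.3 (quasi-likelihood, robust, TMM scaling, filterByExpr with a minimum count of 10 and total of 15) over all 12 libraries. iWAT values were tested as log2(value + 1) with limma 3.58.1 (trend, robust), keeping genes with at least 10 in at least 3 libraries, so fold changes of low genes are understated. p-values were adjusted over all genes by the Benjamini-Hochberg method, and called means an adjusted p under 0.05. Alternatives were DESeq2 1.42.0, other scaling, no filter, the replicate number as a block, each library left out, and, chosen after seeing the data, the libraries with transcripts of other tissues left out. Between ZT12 shiftwork and ZT12 control, deviations of same-numbered libraries from their group means correlated at r = 0.31, 0.13 and 0.20 across genes. Differently numbered libraries of these groups gave -0.28 to 0.12, but ZT3 shiftwork replicate 3 and ZT12 control replicate 1 gave 0.46. The labels give no pairing, and these values do not establish one. The fits were tested on simulated counts in which all genes had the same spread setting and no library carried extra transcripts of other tissues. These data differ from that setting.

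Fold changes with tests are printed for members that were called, otherwise for up to 8 with the smallest unadjusted p under 0.05, and for up to 3 further pathway genes by the same rule. The members and lists were chosen with earlier results of these data known. A count of 3 reads was 0.0415 to 0.147 CPM in eWAT. In GENCODE vM21, 11 of the 30 members share exon bases with another gene, 8 of them on the opposite strand, where unstranded counting cannot tell the genes apart.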

Additional observations from a re-analysis of the deposited data

Results flagged for a closer look

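Tm7sf2 drew attention because its time effect ran in opposite directions on the 2 schedules. It had 9.68, 9.47 and 10.9 CPM in ZT12 shiftwork, against 6.93, 7.87 and 4.98 CPM in ZT3 shiftwork, so every ZT12 library was higher. It had 7.31, 9.69 and 5.81 CPM in ZT12 control, against 15.2, 14.7 and 21.5 CPM in ZT3 control, so every ZT12 library was lower. The interaction was 1.77 on the log2 scale (SE 0.34, unadjusted p = 0.000436, edgeR quasi-likelihood adjusted p = 0.372) and was not called. Without ZT3 control replicates 1 and 3 and ZT3 shiftwork replicate 3 it was 1.41 (edgeR adjusted p = 0.146).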

How the results depend on the processing

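DESeq2, fitted on 20982 genes against 15141 for edgeR, called more genes. It called 662 genes and 6 members at ZT3, and 12 genes at ZT12. Between times it called 2213 genes and 7 members in control, and 296 genes and 1 member in shiftwork. For the interaction it called 192 genes and 1 member. Between times in control, no filter left 320 genes and 1 member called, and the replicate block 298 genes. Between schedules at ZT12, 4 enzymes were lower in shiftwork under the replicate block. The same-numbered libraries of the other comparisons did not all deviate together. Leaving out 1 library gave 0 to 403 genes and 0 to 2 members called at ZT3, 3 to 9 enzymes lower at ZT12, 1 to 2744 genes and 0 to 8 members between times in control, 2 to 5 enzymes lower between times in shiftwork, and 0 to 186 genes, 0 to 1 members and 1 to 3 enzymes negative for the interaction. In iWAT it gave 4 to 16 enzymes lower and 0 to 360 genes called. Leaving out the 3 ZT3 libraries with transcripts of other tissues gave 9 genes called at ZT3, 6 members between times in control, 75 genes and 1 member between times in shiftwork, and 7 genes for the interaction. Gramd1c between times in shiftwork ran from -3.66 to 0.20 with 1 library left out, reversing to 0.20 without ZT3 shiftwork replicate 3, and was 0.18 without all 3. Values of single genes kept their direction and side of the threshold in 648 cases, passed it in 29, lost it in 37 and reversed in 2. The 648 include genes called in neither fit. Only Abcg1, Tm7sf2, Pltp and Lipa, between times in control, had a call to lose. They kept it in 11, 5, 8 and 7 of 17 alternatives. The cause was not tested. Where an arm kept 1 library, it was assumed to vary like the others. With 3 libraries a group, and 13 reads of Idi1 in its lowest library, small differences were not detectable.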
